A study of Homo sapiens with 8 samples.

Results

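The pulldown of RNA from ALKBH1 knockout (KO) cells with an aldehyde-reactive probe was compared with the matching input RNA. The series holds 8 libraries, and the 4 used for this comparison were chosen by their labels, as KO pulldown replicates 1 and 2 and KO input replicates 1 and 2. The other 4 libraries are the pulldowns and inputs of wild-type (WT) cells and serve here only for the last comparison. All 4 groups were total RNA of HEK-293 by the labels (the study's text has HEK293T), a line derived from embryonic kidney, and no other treatment is named. The KO was made with CRISPR, and the study grew its KO cells from sorted single-cell colonies, so the gene and the colony cannot be told apart in any difference from WT. In every group the RNA was treated with DNase, broken into fragments and incubated with 2 mM probe for 24 h, and the input libraries were made from the same probe-treated RNA. The comparison therefore contrasts RNA held on streptavidin beads with all RNA that met the probe, and a pulldown without probe was not analysed here. The labels do not say whether the replicates came from separate cultures, so p-values measure the spread between these libraries, which may be technical.

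The probe is an alkoxyamine that joins biotin to aldehydes and ketones, and it also attaches to abasic sites. ALKBH1 is an iron-dependent dioxygenase that oxidizes 5-methylcytidine to 5-formylcytidine (f5C), an aldehyde, at the first anticodon base of mitochondrial tRNA-Met and of cytosolic tRNA-Leu-CAA. The first anticodon base, called the wobble base, reads the third base of the codon and is often modified. Pulldown over input in the KO therefore asks which RNAs the procedure holds without this enzyme. The libraries are of the iCLIP type, in which cDNA ends are counted, and many modified bases stop reverse transcriptase or leave a cDNA short.

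Each library was deposited as peaks, short stretches where cDNA ends cluster, each with a count of unique cDNAs. The KO pulldowns held 402 and 371 peaks with 53420 and 52137 counts in all, and the KO inputs 744 and 1047 peaks with 194494 and 285539 counts. No peak was listed with fewer than 10 counts, so a position without a peak had fewer counts or did not stand out from its surroundings. That minimum equals 187 and 192 CPM (a count scaled to 1000000 summed peak counts of its library) in the pulldowns but 51.4 and 35.0 in the inputs, so weak positions were listed more readily in the inputs. Peaks that overlapped were merged into 1163 regions. The test was run on the 247 of them that were listed in each of the 4 libraries. Another 40 regions had a peak in both pulldowns and neither input, and 364 had one in both inputs and neither pulldown. No library had a peak at ALKBH1, so the knockout could not be checked in these data. Across regions the replicate values correlated with r = 0.970 for the pulldowns and 0.976 for the inputs, a description of regions that share a library.

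The sequences that carry the comparison are given here before the values. The first set is the 5 reference tRNAs that read the arginine codon CGA, tRNA-Arg-TCG, because the largest peak of both pulldowns lies on one of them. Sequences are from the GRCh38 genome at the RefSeq genes, 5′ to 3′, with the anticodon in capitals.
tRNA-Arg-TCG-1-1, chr15:89335073-89335145, plus strand: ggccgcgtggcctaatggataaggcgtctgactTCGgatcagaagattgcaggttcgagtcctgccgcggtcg
tRNA-Arg-TCG-2-1, chr6:26322818-26322890, plus strand: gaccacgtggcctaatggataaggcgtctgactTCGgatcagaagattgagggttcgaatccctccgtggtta
tRNA-Arg-TCG-3-1, chr17:75035113-75035185, plus strand: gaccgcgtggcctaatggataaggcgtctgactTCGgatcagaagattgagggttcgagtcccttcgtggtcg
tRNA-Arg-TCG-4-1, chr6:26299677-26299749, plus strand: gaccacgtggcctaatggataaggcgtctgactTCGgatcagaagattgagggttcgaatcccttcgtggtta
tRNA-Arg-TCG-5-1, chr6:28543114-28543186, minus strand: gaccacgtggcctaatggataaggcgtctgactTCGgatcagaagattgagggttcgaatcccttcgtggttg
The other 4 differ from tRNA-Arg-TCG-1-1 at 7 to 11 of 73 bases. Bases 6 to 49, which hold the anticodon arm, are the same in all 5, so reads that lie wholly within this stretch cannot tell them apart.

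The second set is 3 tRNAs at the other end of the comparison, the mature references with the lowest ratios of pulldown to input. Again the anticodon is in capitals.
tRNA-Leu-CAG-2-2, chr16:57300480-57300562, minus strand: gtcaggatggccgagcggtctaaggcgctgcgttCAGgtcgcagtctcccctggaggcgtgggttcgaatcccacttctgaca
tRNA-iMet-CAT-1-8, chr17:82494721-82494792, minus strand: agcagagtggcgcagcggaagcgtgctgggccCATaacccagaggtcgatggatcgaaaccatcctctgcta
tRNA-Gly-CCC-1-2, chr1:16861921-16861991, plus strand: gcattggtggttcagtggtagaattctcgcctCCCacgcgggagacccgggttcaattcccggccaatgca
The anticodon loop of tRNA-Gly-CCC-1-2 holds 5 cytidines and that of tRNA-Arg-TCG-1-1 holds 2, a feature taken up with the anticodons below.

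The third set is taken from the highest and lowest regions outside mature cytosolic tRNA, leaving out a nuclear copy of mitochondrial DNA described further on. They are a tyrosine tRNA gene with its intron, 2 mitochondrial tRNAs and 2 stretches of ribosomal RNA, with the tested region in capitals and its surroundings in lower case. The rRNA stretches are shown with 15 nt on either side.
TRY-GTA5-4, chr14:20663192-20663285, minus strand: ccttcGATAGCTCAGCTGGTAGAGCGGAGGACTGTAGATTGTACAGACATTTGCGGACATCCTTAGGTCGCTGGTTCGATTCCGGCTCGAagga
MT-TN, chrM:5657-5729, minus strand: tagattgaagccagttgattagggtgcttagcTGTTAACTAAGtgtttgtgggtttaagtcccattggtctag
MT-TG, chrM:9991-10058, plus strand: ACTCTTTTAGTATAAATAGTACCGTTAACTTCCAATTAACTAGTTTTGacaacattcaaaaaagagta
18S rRNA, region at chr21:8438156-8438221, plus strand: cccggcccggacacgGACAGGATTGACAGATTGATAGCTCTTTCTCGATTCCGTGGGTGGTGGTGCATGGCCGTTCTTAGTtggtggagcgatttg
28S rRNA, region at chr21:8445605-8445618, plus strand: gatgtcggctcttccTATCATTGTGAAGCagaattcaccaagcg
The region on MT-TN covers bases 33 to 43 of this tRNA of 73 nt, from the anticodon loop into the stem strand that follows it. The region on TRY-GTA5-4 crosses the intron, which is absent from mature tRNA-Tyr.

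Pulldown and input differed widely in the KO. Of the 247 tested regions, 69 were higher in the pulldown (27.9%) and 66 were lower (26.7%), by edgeR's quasi-likelihood test at an adjusted p under 0.05, and 112 did not pass. The log2 ratio of pulldown to input ran from -3.65 to 4.78, with a median of 0.16 over all tested regions. The 10 highest ratios that passed were on tRNA-Arg-TCG, tRNA gene loci, MT-TN, a nuclear copy of mitochondrial DNA, 1 stretch of 18S rRNA and a region antisense to FGF13. The 10 lowest were on 18S and 28S rRNA, MT-TG, 3 mature tRNAs (Leu-CAG-2-2, iMet-CAT-1-8 and Gly-CCC-1-2), a Y RNA, a U5 pseudogene, a U8 snoRNA and an intron of DSC2. Peaks of 1 region can have different widths in different libraries. Among the 127 regions whose listed length stayed within 1.5 times over the 4 libraries, a criterion added after seeing the data, 33 were higher and 38 lower.

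**Figure D1:**
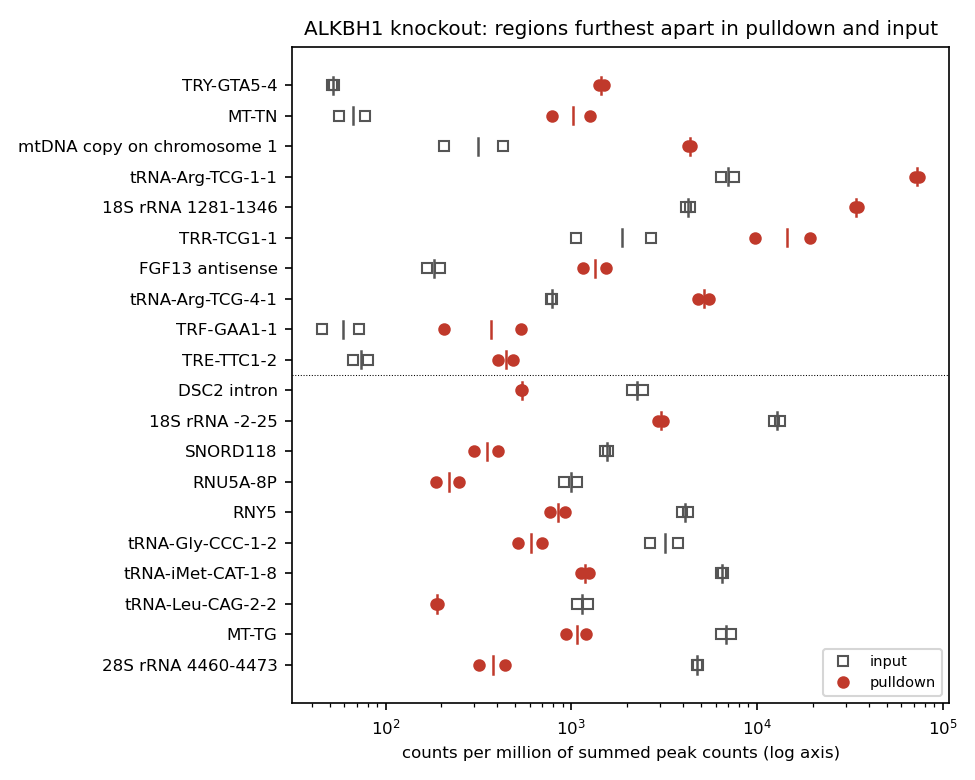
CPM (log axis) in each KO library for the 10 regions with the highest and the 10 with the lowest ratio of pulldown to input among those past the threshold. Filled circles are the 2 pulldowns, open squares the 2 inputs and short bars the group means, and the groups do not overlap in any of the 20 regions, as the rule for choosing them required.

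Among cytosolic tRNAs, tRNA-Arg-TCG stood furthest above input. tRNA-Arg-TCG-1-1 had 3784 and 3903 counts in the pulldowns and 1251 and 2150 in the inputs. Scaled, these are 70835 and 74860.5 CPM against 6432 and 7529.6. It was thus the largest peak of both pulldowns, with 7.08 and 7.49% of their counts, and the groups lay far apart. The pulldown was 10.4-fold higher (log2 ratio 3.38, SE 0.11, adjusted p = 1.61e-06). tRNA-Arg-TCG-4-1 had 258 and 288 counts against 154 and 223 and was 6.58-fold higher (adjusted p = 1.64e-05). The region on tRNA-Arg-TCG-2-1 had a log2 ratio of 2.41 (adjusted p = 1.64e-05) and that on tRNA-Arg-TCG-5-1 one of 2.32 (adjusted p = 1.32e-05). tRNA-Arg-TCG-3-1 was higher by 1.11 (SE 0.30, adjusted p = 0.0160), and its region covers bases 2 to 33, whereas those of the other 4 reach base 63 or 64. All 5 references thus rose, but they share the stretch of identical bases given above and are not independent of each other.

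Part of the gene sequence of tRNA-Arg-TCG-1-1 was also listed on the genome, at TRR-TCG1-1, chr15:89335091-89335115. It had 1035 and 509 counts in the pulldowns and 525 and 302 in the inputs, a 7.84-fold difference with a wide spread (log2 ratio 2.97, SE 0.49, adjusted p = 0.00195). Its 25 bases lie inside the mature tRNA, and reads came to the genome list only when they had not mapped to the tRNA and rRNA references.

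Summed over all peaks of an anticodon, Arg-TCG had 5568 and 5864 counts in the pulldowns and 2696 and 4581 in the inputs. The difference was 7.24-fold (log2 ratio 2.86, SE 0.10, adjusted p = 3.63e-07). None of the other 4 arginine anticodons was higher. Arg-ACG and Arg-CCG were lower in the pulldown (log2 ratios -1.01 and -0.90), and Arg-TCT and Arg-CCT had values of 0.00 and -0.04 (adjusted p = 0.977 and 0.739).

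Over the tRNAs as a whole, 47 anticodons had a peak in the KO libraries and 39 had one in all 4. Of these 39, 9 were higher in the pulldown (23.1%) and 14 lower (35.9%), with a median log2 ratio of -0.04. An anticodon sums peaks called in each library alone, and in 30 of the 39 these covered fewer bases in both pulldowns than in either input, among them 11 of the 14 lower ones. Among the 20 whose covered length stayed within 1.5 times over the 4 libraries, a criterion added after seeing the data, 5 were higher and 7 lower. After Arg-TCG came Thr-AGT, with 275 and 293 counts against 396 and 574 (log2 ratio 1.41, adjusted p = 1.01e-04). Ile-TAT was higher by 1.05 (adjusted p = 0.00145) and His-GTG by 0.87 (adjusted p = 2.28e-04). Gln-TTG was higher by 0.93 on only 21 and 15 pulldown counts (adjusted p = 0.0211), a call that was lost with TMM scaling, with DESeq2 and without pulldown or input replicate 1. Lys-TTT, Phe-GAA, Thr-TGT and Ile-AAT were higher by 0.35 to 0.84. The calls of Thr-TGT and Ile-AAT were lost with TMM scaling and without pulldown replicate 2. That of Ile-AAT was lost also with DESeq2 and without input replicate 1, and that of Lys-TTT without pulldown replicate 1 (0.74).

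The lowest anticodon was iMet-CAT, the initiator tRNA that begins every protein chain. It had 60 and 65 counts in the pulldowns against 1262 and 1910 in the inputs (log2 ratio -2.47, SE 0.15, adjusted p = 1.02e-05). Elongator Met-CAT, which has the same anticodon and inserts methionine within the chain, had 238 and 314 against 1161 and 1767 counts. It did not pass (-0.22, adjusted p = 0.288). With 1 library left out at a time its value ran from -0.45, without pulldown replicate 2, to -0.01. All 3 valine anticodons were lower, with log2 ratios of -2.25 for Val-AAC, -1.40 for Val-CAC and -1.28 for Val-TAC. So were all 3 glycine anticodons, at -1.30 for Gly-CCC, -1.04 for Gly-TCC and -0.90 for Gly-GCC. The value of Val-AAC rests on only 24 and 12 pulldown counts. Its peaks covered 59 and 18 nt in the pulldowns and 99 and 110 nt in the inputs. Among single mature cytosolic tRNA references the lowest was tRNA-Leu-CAG-2-2, printed above, with 10 and 10 counts, the listing minimum, against 208 and 350 (log2 ratio -2.59, adjusted p = 1.70e-04). Leu-CAG summed over its peaks, in contrast, had a value of 0.27 that did not pass (adjusted p = 0.0824). tRNA-Gly-CCC-1-2 had 37 and 27 counts against 732 and 758 (log2 ratio -2.40, adjusted p = 2.85e-04). The valine, glycine and arginine groups were picked after their values were seen. Cys-GCA, Lys-CTT, Glu-CTC and Trp-CCA were lower, with log2 ratios from -1.09 to -0.68, while Ser-CGA and Gln-CTG had values of 0.30 and 0.42 and did not pass. The call of Trp-CCA was lost without pulldown replicate 1 or input replicate 2, and that of Glu-CTC without pulldown replicate 1.

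**Figure D2:**
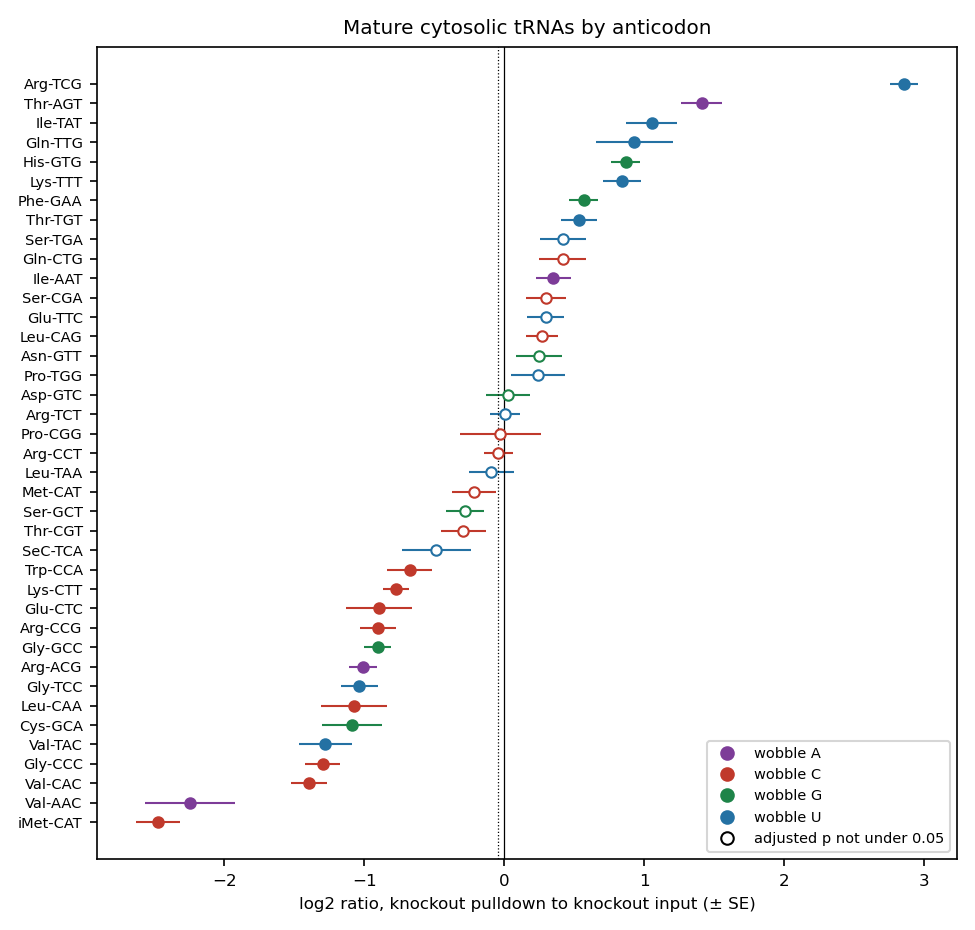
Log2 ratio of KO pulldown to KO input for the 39 tested anticodons (horizontal axis, bars ± SE of the fit), ordered by value and coloured by wobble base, with open circles where the adjusted p was not under 0.05. Arg-TCG stands apart at the top, and no anticodon with a wobble C (red) is filled to the right of 0.

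Of the 15 tested anticodons with a wobble C, the base that can carry f5C, 0 were higher and 8 were lower, and their median was -0.68 against -0.04 over all 39. At an unadjusted p under 0.05 edgeR had 2 of the 15 higher, DESeq2 had 0 higher after adjustment, and edgeR with TMM scaling had 0 higher and 9 lower. Without pulldown replicate 2, 1 was higher (Gln-CTG, 0.58) and 9 lower, and leaving out another library gave 0 higher and 6 to 8 lower. Of the 7 of like covered length, 0 were higher and 4 lower. The 4 anticodons with a wobble A, which cells convert to inosine, split into 2 higher and 2 lower. Of the 13 with a wobble U (T in the sequences) 5 were higher and 2 lower, with a median of 0.29, but with TMM scaling these became 3 and 3. Of the 7 with a wobble G, 2 were higher and 2 lower. The wobble U and G groups were formed after the values were seen.

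Other modification groups gave small counts. Of the 3 tested queuosine tRNAs, whose wobble G is exchanged for a deazaguanine base, His-GTG was higher, while Asn-GTT and Asp-GTC had values of 0.25 and 0.03. Of the 3 anticodons whose tRNAs are methylated by DNMT2, Val-AAC and Gly-GCC were lower and Asp-GTC did not pass. Of the 2 methylated by NSUN6, Thr-TGT was higher and Cys-GCA lower. Of the 3 tested anticodons with intron-bearing genes, Ile-TAT was higher, Leu-CAA was lower and Arg-TCT did not pass. The fourth, Tyr-GTA, had 39 and 62 counts in the inputs and no peak on the mature reference in either pulldown. The inputs were deeper and listed weaker peaks, so this does not show that Tyr-GTA was lower in the pulldown.

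The base composition of the anticodon loop varied along with these ratios. The loop was read in 82 of the 92 tested regions on mature tRNA, where a RefSeq gene and its anticodon could be located. Genes above a length limit, such as those with an intron, were left out. Leu-CAA, Ile-TAT and Arg-TCT are thus not among the 82. The 23 regions whose loop of 7 nt holds 1 C had a median log2 ratio of 0.52, with 9 higher and 2 lower. With 2 C the median of 33 regions was -0.04, with 9 higher and 10 lower. With 3 C it was -0.65 over 15 regions (1 higher, 8 lower), with 4 C -1.32 over 7 regions (0 higher by edgeR, by DESeq2 or at an unadjusted p under 0.05, and 6 lower), and the only region with 5 C was tRNA-Gly-CCC-1-2 at -2.40. The 3 regions with no C had a median of 0.41. Pearson's r across the 82 regions was -0.45, and -0.55 over the 77 left without Arg-TCG, while r with the GC content of the whole gene was -0.22. These regions share libraries, and many share sequence, so the values are a description. The C count was chosen after the ratios were seen, and its part in them was not tested.

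Peaks on tRNA also sat at different places in pulldown and input. Of the cytosolic tRNA counts, 28.5 and 29.3% in the pulldowns were in peaks that start in the first 5 nt of the tRNA, where cDNAs that run the whole length of a tRNA end. In the inputs these shares were 62.7 and 64.4%. The means were 28.9% ± 0.57 and 63.6% ± 1.24 (SD, n = 2 each; two-sided exact permutation p = 0.333, the smallest that 2 against 2 libraries allow). Without Arg-TCG the shares were 41.7 and 43.6% against 66.0 and 67.3%. Peaks that start in the first 5 nt were wide, with medians of 48.5 and 51 nt in the pulldowns and 46.5 and 48 nt in the inputs. Their counts thus include cDNA ends further in and are not shares of full-length cDNAs. Peaks centred at base 46 or beyond, past the anticodon arm, held 17.2 and 9.68% of pulldown counts and 4.67 and 2.50% of input counts. Without Arg-TCG these were 12.2 and 12.0% against 4.62 and 2.65%. The spread between the pulldowns was wide here, and the groups did not overlap. Of the 52 tested regions that start in the first 5 nt, 10 were higher and 23 lower, and of the 40 that start further in, 13 were higher and 7 lower (medians -0.36 and 0.32).

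**Figure D3:**
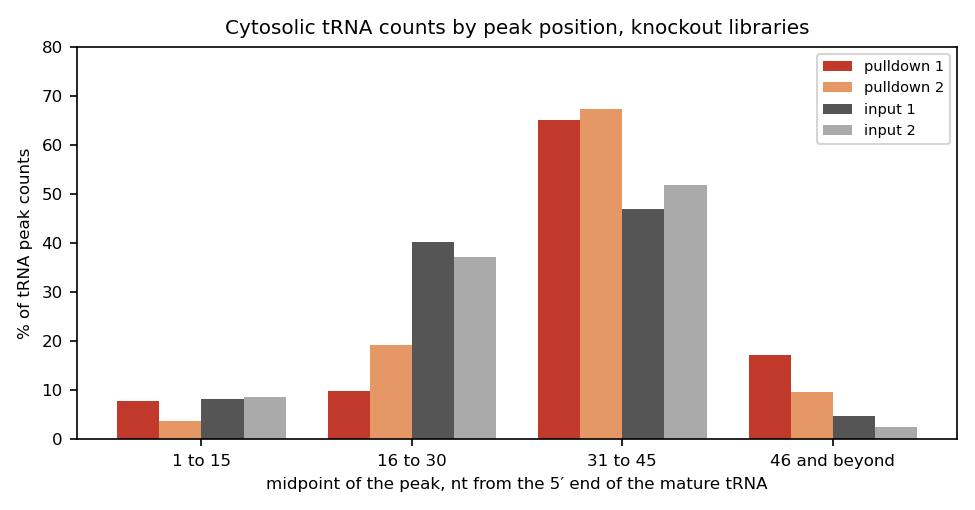
Share of the cytosolic tRNA counts (percent, from 0) of each KO library in peaks by the position of the peak's midpoint, in nt from the 5′ end of the mature tRNA. The pulldowns hold 65.2 and 67.4% at 31 to 45 nt against 47.0 and 51.8% in the inputs, and 9.90 and 19.2% at 16 to 30 nt against 40.2 and 37.2%.

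The tested regions on nuclear tRNA gene loci, where reads can come from precursor tRNA, were higher more often than lower. Of the 32 tested, 14 were higher and 4 lower, with a median of 0.59, against 27.9 and 26.7% of all tested regions. Another 53 regions of this class were listed in both inputs and neither pulldown, 8 of them above 192 CPM in both inputs. The reverse, both pulldowns and neither input, held for 1. The class made up 3.98% ± 1.07 of pulldown counts and 3.20% ± 0.20 of input counts (SD, n = 2 each), and the groups overlapped. The highest of all regions was TRY-GTA5-4, a tyrosine tRNA gene, printed above with its intron. It had 75 and 78 counts in the pulldowns (1404 and 1496 CPM) and 10 and 15 in the inputs (51.4 and 52.5 CPM). The pulldown was 27.4-fold higher (log2 ratio 4.78, SE 0.24, adjusted p = 1.64e-05), set against input counts at or near the listing minimum. The neighbouring tyrosine gene TRY-GTA5-3 (chr14:20653112-20653200) was higher by 1.87, and TRY-GTA2-1 (chr2:27050772-27050862), whose region begins 9 nt before the gene, by 1.17.

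Among the other loci, TRF-GAA1-1, a phenylalanine tRNA gene at chr6:28790722-28790794, had 11 and 28 counts against 14 and 13. Its 6.40-fold difference passed (adjusted p = 0.00343) although the pulldowns differed from each other by more than the inputs did. TRE-TTC1-2, a glutamate gene on chromosome 13, had 26 and 21 counts against 13 and 23 and was 5.92-fold higher (adjusted p = 2.85e-04). The lowest locus was TRA-AGC4-1, an alanine gene, with 53 and 43 counts against 536 and 705 (log2 ratio -1.52, adjusted p = 4.98e-04). The table of RefSeq genes used here has no strand, so peaks were matched to tRNA genes on either strand. Read from the orientation of the gene's sequence, all 32 regions lay on the strand of the gene. Near-identical copies share reads, so the locus named is where the authors placed unique reads.

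The mature forms of the known ALKBH1 substrates were not called higher than input in the KO. The region that holds mitochondrial tRNA-Met (MT-TM) also covers its neighbour MT-TI, and it had 939 and 1045 counts in the pulldowns and 3232 and 5344 in the inputs. Scaled, the values were 17578 and 20043 CPM against 16618 and 18716, which overlap. The log2 ratio was 0.09 (SE 0.11, adjusted p = 0.496), and its sign turned with TMM scaling. Cytosolic Leu-CAA summed over its peaks had 70 and 47 counts against 433 and 693 and was lower in the pulldown (-1.07, SE 0.23, adjusted p = 0.00529). Its peaks covered 57 and 61 nt in the pulldowns and 194 nt in each input, so part of what was summed for the inputs was not listed in the pulldowns. Of its mature references, tRNA-Leu-CAA-1-2 was lower (-0.81, adjusted p = 0.0118), and so was tRNA-Leu-CAA-4-1 (-0.83, adjusted p = 0.0369), a call that was lost with DESeq2, with uncalled regions at 0 and without any of 3 libraries (either pulldown or input replicate 2). The call of tRNA-Leu-CAA-1-2 was lost without input replicate 2. The gene loci TRL-CAA1-1 and TRL-CAA1-2 had values of 0.16 and 0.30 that did not pass, and TRL-CAA3-1 was higher by 0.97 (adjusted p = 0.0134).

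Mitochondria encode 22 tRNAs, 14 on the plus strand of the reference and 8 on the minus strand, and 12 regions on them were tested. On the minus strand 4 of 5 were higher and 1 was lower, and on the plus strand 1 of 7 was higher and 1 lower (medians 1.33 and 0.16). Over all tested regions 27.9 and 26.7% were higher and lower. Regions on MT-TQ and MT-TE (minus strand) and on MT-TV, MT-TD, MT-TK and MT-TR (plus strand) were not listed in all 4 libraries and not tested. Of the untested regions, 4 were listed in both inputs and neither pulldown, 3 of them above 192 CPM in both inputs. MT-TR was one of these, with 284 and 475 input counts. MT-TN, the asparagine tRNA printed above, had 67 and 41 counts in the pulldowns and 15 and 16 in the inputs, a 15.4-fold difference (SE 0.34 on the log2 ratio of 3.95, adjusted p = 1.17e-04). MT-TA (alanine) was higher by 1.47 and MT-TY (tyrosine) by 1.33, the latter on 970 and 939 against 1451 and 1982 counts. These 3 genes lie next to each other on the minus strand, with the cysteine gene MT-TC between MT-TN and MT-TY. MT-TS1 (serine) was higher by 1.23 (adjusted p = 0.0451), a call that was lost in 8 of its alternatives, among them all 3 other scalings, and its value was 0.61 without pulldown replicate 2 and 1.66 without replicate 1. Without MT-TS1 the count on the minus strand is 3 of 5. MT-TP (proline) was lower (log2 ratio -1.52), in a region of 160 nt that reaches beyond the gene on both sides.

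On the plus strand the joint region of MT-TH and MT-TS2 was higher (2036 and 1857 against 3283 and 4794 counts, log2 ratio 1.13, adjusted p = 6.21e-05). MT-TG, the glycine tRNA, was the lowest mitochondrial region, with 64 and 49 counts against 1249 and 2068 (log2 ratio -2.67, SE 0.17, adjusted p = 3.15e-05). MT-TF, MT-TL1, MT-TW and MT-TT had values of 0.07 to 0.24 that did not pass. The MT-TL1 region (chrM:3104-3275) begins in MT-RNR2, ahead of the gene at 3230-3304. That of MT-TF (chrM:585-706) runs past its gene at 577-647 into MT-RNR1. Both thus mix tRNA with mitochondrial rRNA. Regions elsewhere in the genome that share at least 20 nt with mitochondrial DNA gave 2 higher and 0 lower of 5 tested. One of them, on chromosome 1 (chr1:630865-631031, minus strand), had 235 and 223 counts against 40 and 122 (log2 ratio 3.74, adjusted p = 1.17e-04). It shares 131 nt with mitochondrial DNA, begins within a copy of MT-TY and ends within a copy of MT-TN. Over the shared bases this locus and the mitochondrial genes have the same sequence. The counts do not show which of them such reads came from.

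Ribosomal RNA gave both higher and lower regions along the same molecules. Of 38 tested, 10 were higher and 14 lower, against 27.9 and 26.7% of all tested regions. In 18S rRNA, the RNA of the small subunit, the stretch at bases 1281 to 1346 had 1796 and 1820 counts in the pulldowns and 845 and 1182 in the inputs. It was the only one of 9 tested 18S regions that was higher, by 8.08-fold (log2 ratio 3.01, SE 0.09, adjusted p = 1.61e-06). Its neighbour at bases 1248 to 1252, which begins at a known hypermodified pseudouridine, had a value of -0.02 (adjusted p = 0.872). The 5′ end of 18S rRNA, from 2 nt before it to base 25, was lower (167 and 153 against 2591 and 3544 counts, log2 ratio -2.09).

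In 28S rRNA, the large-subunit RNA, 9 of 26 regions were higher and 9 lower, against 27.9 and 26.7% of all tested regions. The stretch at bases 4460 to 4473 was the lowest of all tested regions, with 17 and 23 counts in the pulldowns against 926 and 1367 in the inputs. The pulldown held 0.0796 of the input level (log2 ratio -3.65, SE 0.19, adjusted p = 1.64e-05). The highest 28S region, bases 3591 to 3625, had 431 and 328 against 379 and 680 counts (log2 ratio 1.73). Bases 1618 to 1750, among the largest pulldown peaks, were 2.01-fold higher (2167 and 2320 against 4229 and 5849 counts, adjusted p = 1.17e-04). The other large peaks were slightly lower in the pulldown, with log2 ratios of -0.66 for 5.8S rRNA, -0.50 for bases 4926 to 5053 of 28S rRNA and -0.32 for 5S rRNA, and each of these 3 calls was lost when a pulldown replicate was left out.

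**Figure D4:**
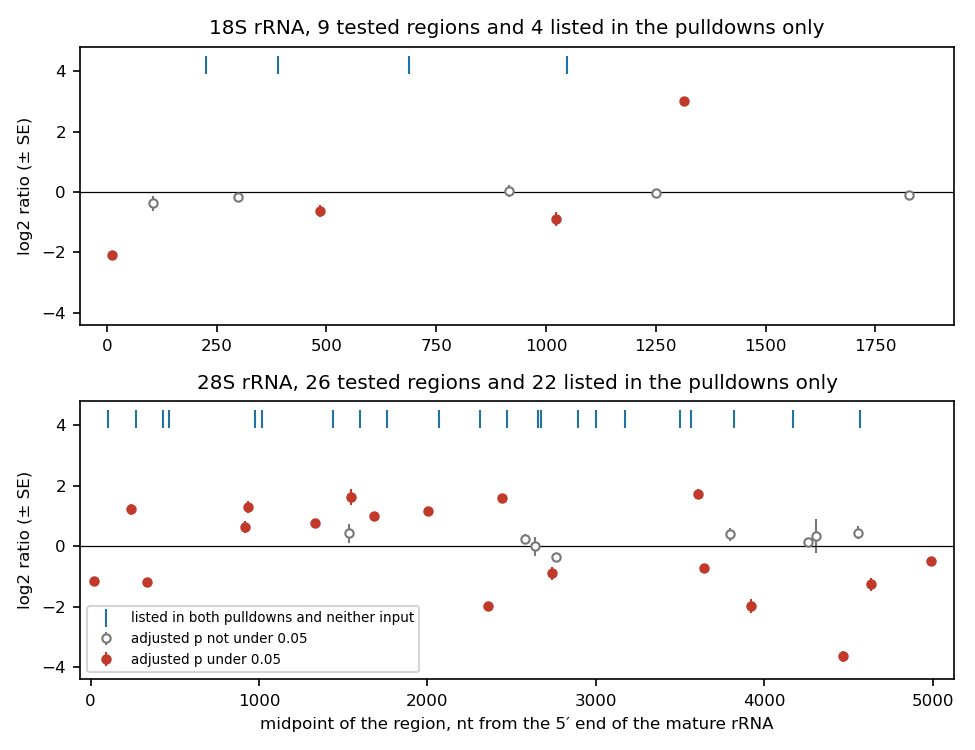
Log2 ratio of KO pulldown to KO input (vertical axis, bars ± SE) for each tested region of 18S and 28S rRNA by the position of its midpoint in nt from the 5′ end. Red points passed the test, and ticks at the top mark the 4 and 22 regions listed in both pulldowns and neither input, which on 18S rRNA lie between bases 223 and 1051 and on 28S rRNA between bases 98 and 4568.

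Positions listed only in the pulldowns were mostly ribosomal. Of the 40 regions with a peak in both pulldowns and neither input, 22 lay on 28S rRNA and 4 on 18S rRNA, and 27 were at most 5 nt long. Of all 1163 regions, 118 lay on 28S and 61 on 18S rRNA, and 70.7 to 77.2% of the rRNA peaks of each KO library were as narrow. The 5 with the highest mean count all lay on 28S rRNA and are shown with 15 nt on either side and the peak in capitals, from the ribosomal copy on chromosome 21, plus strand.
28S rRNA bases 98 to 113, chr21:8441243-8441258: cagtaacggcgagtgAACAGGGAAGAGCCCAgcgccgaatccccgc
28S rRNA bases 3562 to 3564, chr21:8444707-8444709: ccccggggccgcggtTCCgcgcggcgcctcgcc
28S rRNA bases 1597 to 1598, chr21:8442742-8442743: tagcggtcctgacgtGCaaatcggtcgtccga
28S rRNA bases 1018 to 1023, chr21:8442163-8442168: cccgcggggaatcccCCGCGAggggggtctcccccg
28S rRNA bases 431 to 434, chr21:8441576-8441579: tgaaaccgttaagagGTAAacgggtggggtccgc
Their counts in the 2 pulldowns were 396 and 268, 257 and 230, 211 and 171, 135 and 65, and 105 and 87, in that order. The nearest input peak was 15 to 74 nt away. Since the inputs list peaks down to 51.4 and 35.0 CPM, these positions did not form peaks there, but broad input peaks nearby do not show what counts lay at these bases, and no ratio is given. Of the 40 regions, 15 also had a peak in both WT pulldowns and 9 in at least 1 WT input. The first base of narrow rRNA peaks, of at most 5 nt, was C in 39.8 and 30.0% of pulldown peaks (88 and 70 peaks) and in 30.5 and 28.6% of input peaks (82 and 91), against 33.4% C in 28S and 26.7% in 18S rRNA. Weighted by count the order turned, with 25.0 and 16.3% C in the pulldowns and 32.7 and 30.2% in the inputs.

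Small nuclear and nucleolar RNAs were on the input side. The snoRNAs and scaRNAs guide modification of rRNA and snRNA. Of their 18 tested regions, 0 were higher and 7 lower by edgeR, against 27.9 and 26.7% of all tested regions. At an unadjusted p under 0.05, and by DESeq2, 0 were higher too, and the highest was SNORD59A at 0.44 (adjusted p = 0.251). SNORD118, the U8 snoRNA needed for processing of 28S and 5.8S rRNA, had 16 and 21 counts against 297 and 452 (log2 ratio -2.15, adjusted p = 3.00e-04). The class held 0.723% ± 0.079 of pulldown counts and 3.68% ± 0.35 of input counts (SD, n = 2 each; exact permutation p = 0.333). Another 111 regions of this class were listed in both inputs and neither pulldown, of which 37 lay above 192 CPM in both inputs and so above the listing minimum of the pulldowns. Over all classes 124 of 364 such regions did, 39 of 41 in the case of rRNA.

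Of 7 tested snRNA regions, the spliceosomal RNAs, 0 were higher and 4 lower by edgeR, against 27.9 and 26.7% of all tested regions. By DESeq2 0 were higher, and 1 was higher at an unadjusted p under 0.05 in edgeR. The 4 were all copies of U5, the snRNA that aligns exons: RNU5A-8P (a pseudogene), RNU5D-1, RNU5E-1 and RNU5A-1, with log2 ratios from -2.19 to -0.97. The region higher at an unadjusted p was RNU4-1, a U4 gene, at 0.71 (adjusted p = 0.0711). Among 7SK, 7SL, Y and vault RNAs, 2 of 6 were higher and 2 lower. The signal recognition particle RNAs RN7SL1 and RN7SL2 were higher by 0.71 and 0.42. RNY5, a Y RNA bound by Ro60, had 41 and 48 against 768 and 1215 counts (log2 ratio -2.28, adjusted p = 6.21e-05), and the vault RNA VTRNA1-2 was lower at -0.89.

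Few regions outside these RNAs were tested, and the counts below stand against 27.9% higher and 26.7% lower among all tested regions. FGF13 antisense, 3 nt on the strand opposite to the growth factor gene FGF13 at chrX:139083503-139083505, had 62 and 80 counts against 38 and 48 (log2 ratio 2.89, adjusted p = 1.17e-04). It was the highest of 7 regions antisense to a gene, of which 3 were higher and 0 lower. In introns 3 of 8 were higher and 2 lower, from -2.07 in DSC2, a desmosomal cadherin gene, to 1.54 in a lncRNA (ENSG00000246090). Of 9 intergenic regions 3 were higher and 0 lower, from -0.31 on chromosome 2 to 2.22 on chromosome 5. Both regions antisense to tRNA or rRNA and 1 of 2 mRNA exon regions were higher, and the 1 tested lncRNA or pseudogene region did not pass. For the antisense, intergenic and mitochondrial-copy regions, 0 were lower also at an unadjusted p under 0.05 in edgeR and in DESeq2. Regions listed in both inputs and neither pulldown could not enter, so this does not show that none was lower. They numbered 14 antisense to a gene, 24 intergenic, 4 mitochondrial-copy and 25 intron regions. Of these, 4, 3, 1 and 2 lay above 192 CPM in both inputs. The reverse, both pulldowns and neither input, held for 2, 2, 0 and 1. Introns made up 0.923% ± 0.051 of pulldown counts and 2.27% ± 0.30 of input counts (SD, n = 2 each). Of 6 mitochondrial rRNA regions 1 was higher and 1 lower, both in MT-RNR2, at 0.81 and -1.41.

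By shares of all peak counts, cytosolic tRNA made up 33.5% ± 0.97 of the pulldowns and 27.5% ± 0.56 of the inputs (SD, n = 2 each). Mitochondrial tRNA made up 12.5% ± 0.057 and 10.2% ± 0.40, and rRNA 40.7% ± 0.086 and 45.3% ± 1.94. The groups did not overlap in these 3 classes, and each exact permutation test gave p = 0.333. A mitochondrial peak over more than 50% of a tRNA gene was counted as tRNA, also where it reached into mitochondrial rRNA. The largest peak was tRNA-Arg-TCG-1-1 in both pulldowns and 5.8S rRNA in both inputs (8.43 and 7.47% of their counts). With both of these removed from every library, an alternative added after seeing the data, cytosolic tRNA was 0.57 points higher in the pulldown and the difference for rRNA was -0.17 points.

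A filter after the study's methods was also applied, which keeps a pulldown peak with a count above 10 in both replicates and either no input peak or a value more than 1.5 times the input. The study further required for its targets that a peak be absent from the KO pulldown, which cannot be asked of the KO itself. With CPM, this kept 128 of 377 peaks of pulldown replicate 1, 38 of them without an input peak. Among the 128, 43 were on rRNA (33.6%), 22 on cytosolic tRNA (17.2%) and 16 on tRNA gene loci (12.5%). Before the filter, replicate 1 listed 114 peaks on rRNA and 101 on cytosolic tRNA among its 402. With unscaled counts, which favour the deeper inputs, 51 were kept.

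Finally, the ratios in the KO were set beside those in WT, which share no libraries with them. Of 186 regions with a peak in all 8 libraries, 46 were higher in the KO pulldown, and of these 30 were also higher and 0 lower in the WT pulldown. Of 55 lower in the KO pulldown, 39 were also lower and 2 higher in WT. The numbers higher and lower in WT among all 186 regions are not given here, so these overlaps have no base rate beside them. Over all 186 regions the KO and WT log2 ratios had a Pearson's r of 0.666, a description of regions that share libraries. A test of the difference itself passed for 69 regions (37.1%), with the KO ratio above the WT ratio in 48 and below it in 21. The median difference was 0.34 and fell to -0.02 with TMM scaling, under which 20 regions were higher and 38 lower in the KO. The differences given below are not corrected for that shift. Of the 69, 41 passed with the same sign under both scalings, 20 higher and 21 lower.

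The stretch of 18S rRNA at bases 1281 to 1346 had log2 ratios of 3.01 in the KO and 2.97 in WT. The difference was 0.04 (SE 0.22, adjusted p = 0.891), and its sign turned with TMM scaling. tRNA-Arg-TCG-1-1 had 70835 and 74860.5 CPM in the KO pulldowns and 65858 and 72964 in the WT pulldowns. Its inputs lay further apart, at 6432 and 7529.6 CPM in KO and 18510.3 and 24298 in WT. Its ratio was thus higher in the KO by 1.69 (SE 0.20, adjusted p = 8.82e-04). TRY-GTA5-4 was high in both genotypes, by 4.77 in KO and 3.92 in WT, and TRF-GAA1-1 was higher in WT (5.24 against 2.67). iMet-CAT-1-8 and MT-TG were low in both, with differences of 0.69 (adjusted p = 0.113) and -0.61 (adjusted p = 0.0744). The first passed without WT pulldown replicate 2 (1.09), and the second with TMM scaling (-0.97) and DESeq2 (-0.82).

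The ALKBH1 substrates had the widest separation of the named regions. For MT-TI/MT-TM the WT ratio was 3.64 and the KO ratio 0.09 on the log2 scale (difference -3.55, SE 0.18, adjusted p = 5.02e-05). tRNA-Leu-CAA-4-1 had 3.72 and -0.83 (difference -4.55, adjusted p = 8.05e-05) and tRNA-Leu-CAA-1-2 2.22 and -0.81 (difference -3.03, adjusted p = 8.05e-05).

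**Figure D5:**
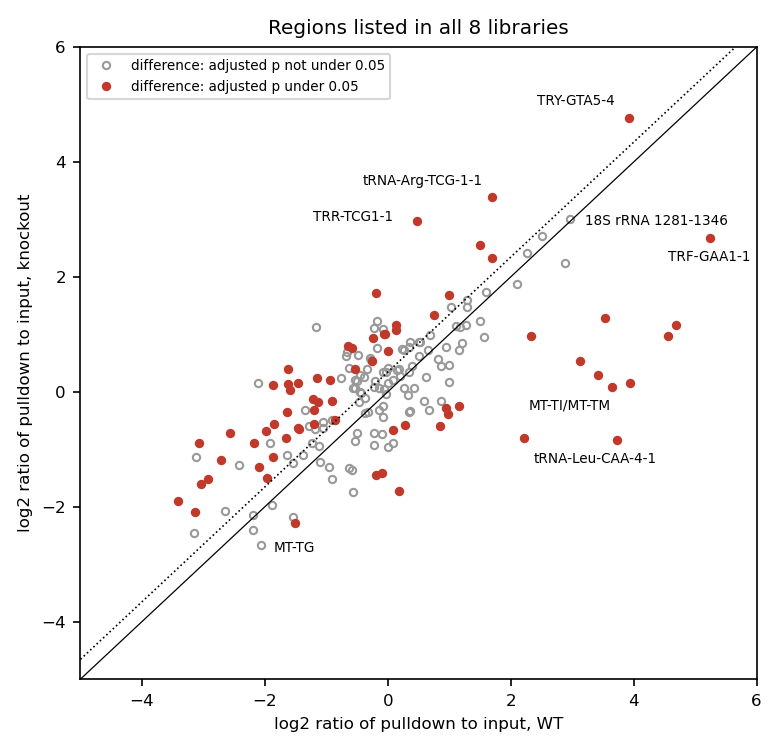
Log2 ratio of pulldown to input in the KO (vertical) against WT (horizontal) for the 186 regions listed in all 8 libraries, filled red where the difference passed the test. The solid line marks equal ratios and the dotted line the median difference of 0.34, and MT-TI/MT-TM and tRNA-Leu-CAA-4-1 lie far below both lines.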

How the data were processed

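Total RNA of KO and WT HEK-293 cells (as labelled) was sequenced before and after probe pulldown, with 2 libraries in each of 4 groups. Per the study's methods, the authors removed PCR duplicates by unique molecular identifiers and mapped reads in the iCount pipeline with STAR, first to tRNA and rRNA. Reads left over went to GRCh38, and uniquely placed ones stayed. Paraclu was run by the authors on each library alone, and 2 lists per library were deposited, giving for each peak the number of unique cDNAs as a raw count. Near-identical references can exchange reads. A spike-in was not analysed here.

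KO peaks overlapping by 1 nt on a strand were merged and classed by GENCODE release 44 and RefSeq patch 14. Counts were scaled to the summed peak counts of a library, between 52137 and 285539 in the KO and 48380 and 98032 in WT, so a value is relative to what was called. Regions, and tRNA peaks summed per anticodon (194 rows with the other regions), were tested with edgeR 4.0.16 (quasi-likelihood, no TMM factors, two-sided) in R 4.3.3 with Benjamini-Hochberg adjustment where all 4 libraries had a peak. The difference from WT was the interaction over regions listed in all 8. The fits were tested on simulated data with 4-fold changes. They recovered 94.2% over regions, 92.1% over anticodons and 84.6% for the difference from WT. Wrong calls made up 6.8, 4.6 and 7.1% of all calls. Every simulated region had a count in each library, so peak listing was not covered. Class shares were compared by exact permutation tests. Intervals and minimum counts cover counting error only.

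Named regions were the 10 highest and 10 lowest past the threshold with separate groups, the 5 with the highest mean pulldown CPM, the 5 largest in the pulldowns only, the extremes of each class with at least 3 tested, each mitochondrial tRNA, the known substrates and 7 anticodons among those the study names. All rules and lists (wobble bases, queuosine, introns, DNMT2, NSUN6, RNA classes) were chosen with earlier results of these data known. Other tRNA loci and rRNA, U5, 7SL and vault regions were named after their values were seen. Alternatives covered scaling, DESeq2 1.42.0, unlisted regions, a mean count of 50, merging, all 8 libraries, the replicate number and leaving out each library.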

Additional observations from a re-analysis of the deposited data

Results flagged for a closer look

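The regions below had a ratio of pulldown to input that differed between KO and WT by the interaction test in edgeR over 186 regions (adjusted p under 0.05), and each value is the KO log2 ratio minus the WT log2 ratio. The median over all 186 was 0.34, and with TMM scaling it was -0.02. The known ALKBH1 substrates were lower in the KO, with tRNA-Leu-CAA-4-1 at -4.55, MT-TI/MT-TM at -3.55 and tRNA-Leu-CAA-1-2 at -3.03. TRF-GAA1-1 was lower, at -2.57, on 11 and 28 KO pulldown counts against 270 and 339 in WT. This call was lost in 7 alternatives. RNY5 was lower, at -0.76, and its call was lost on leaving out any 1 of the 8 libraries (-0.90 to -0.64) and with uncalled regions at 0. tRNA-Arg-TCG-1-1 was higher in the KO by 1.69, where the pulldowns lay close to each other in CPM and the inputs did not. The 5′ end of 18S rRNA, from 2 nt before it to base 26 in this merging, was higher by 1.05 and stayed below input in both genotypes. TRR-TCG1-1 was higher by 2.49, TRE-TTC1-2 by 1.06 and TRY-GTA5-4 by 0.85. These last 3 were lost in 8 to 10 alternatives each, among them DESeq2 and TMM scaling (adjusted p = 0.0833, 0.163 and 0.249). The KO line came from a single-cell colony, so the gene and the colony cannot be told apart.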

How the results depend on the processing

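With uncalled regions set to 0, 517 regions passed for KO pulldown against input (105 higher, 412 lower), and with them set to the lowest listed count 410 did (245 and 165), because more regions enter. Regions of like covered length gave 71 (33 and 38), because fewer enter, and anticodons of like covered length gave 12 (5 and 7) for the same reason. Leaving out 1 library at a time gave 112 to 144 calls over regions and 19 to 23 over anticodons. With the replicate block 143 regions, 23 anticodons and 85 differences from WT passed. All 135 main region calls were among the 143. Same-numbered libraries deviated together only weakly (r = 0.227 over 2 pairs) and share only a number. The block changed 2 named calls, TRY-GTA5-4 against WT (0.86, not past) and MT-TL1 (0.20, past). For the difference from WT, TMM scaling gave 20 higher and 38 lower, and with uncalled regions at 0, 43 were lower. Without the largest peak of each library, a tRNA in the pulldowns and an rRNA in the inputs, class differences reversed by that construction to -1.59 points for cytosolic tRNA and 3.37 for rRNA. The study's filter kept 31 peaks with a score above 100, 71 with a ratio above 3 and 51 with unscaled counts. Small log2 ratios turned sign: MT-TI/MT-TM was -0.0057 with TMM and -0.024 without rRNA (leave-one-out -0.0075 to 0.18), MT-TT -0.030 and -0.048 (-0.024 to 0.16), and MT-TW ran from -0.025 to 0.47. KO minus WT turned for tRNA-Arg-TCG-4-1 (-0.15 with TMM), SNORD118 (-0.32 with TMM, -0.16 with DESeq2, leave-one-out -0.19 to 0.38), 18S rRNA 1281 to 1346 (-0.32, -0.17, -0.15 to 0.28) and tRNA-Gly-CCC-1-2 (-0.54 to 0.32). The cause was not tested. Of all alternative values, 462 of 490 for named regions, 191 of 207 for anticodons and 158 of 216 for differences from WT kept direction and call.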
